A study of Mus musculus with 8 samples.

Results

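The 33 genes described here encode enzymes and carriers that break down fatty acids in mitochondria and peroxisomes, and other genes that the nuclear receptor PPARA switches on in liver. They were listed by name, from Ppara itself and its coactivator gene Ppargc1a to Angptl4, and make up 33 of the 14312 genes tested. All 33 were found on the arrays, with 43 probes, and all were tested, with signals well above background in both channels on 8 of 8 arrays. RNA was compared on 8 arrays of 2 colours. Each array held a hepatocellular carcinoma, taken from a male mouse with the microRNA gene miR-122 knocked out and labelled with Cy5, beside liver of an age-matched male whose miR-122 gene carried loxP sites (floxed), labelled with Cy3. Both were of a background that mixed C57BL/6J and 129S/Svj. The labels call the same control livers floxed in one place and wild type in another, and give neither the ages nor the way the gene was deleted. No tumor-free liver without miR-122 was analysed here, so the deletion and the tumor cannot be told apart, nor can the tumor and the dye, since no array had the dyes exchanged. The labels do not tie a tumor to an animal, nor say whether control RNA was pooled, so p-values measure the spread between these samples. The knockout could not be checked, because miR-122 was not analysed here.

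The liver burns fatty acids when food is short. Long-chain fatty acids are activated to acyl-CoA by Acsl1, cross the inner mitochondrial membrane as carnitine esters, and are shortened in repeated turns of beta-oxidation, whose electrons leave through the electron transfer flavoproteins; peroxisomes shorten very long, branched and dicarboxylic chains. PPARA, which senses fatty acids and pairs with RXR on DNA, raises many genes of these pathways in fasted liver, and the acetyl-CoA that is formed feeds ketone bodies to other tissues.

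The log2 ratio of tumor over control was lower than 0, on average, for 31 of the 33 genes, and 17 fell: Acsl1, Slc25a20, Cpt2, Acadvl, Acadm, Hadha, Acaa2, Eci1, Decr1, Etfa, Etfb, Etfdh, Acaa1a, Acaa1b, Eci2, Pex11a and Angptl4. A gene was said to fall or rise when its log2 ratio was at least 1 in size, a 2-fold change, at a Benjamini-Hochberg adjusted p under 0.05 in limma. The background was 5.94% of all genes lower and 9.54% higher in the tumors. No member rose by that rule, nor at an unadjusted p under 0.05 (0 of 33), while 25 of 33 were lower at an adjusted p under 0.05 with no minimum fold, against a background of 25.1% of all genes lower and 28.7% higher. The median log2 ratio of the 33 genes was -1.07, against 0.03 for all genes. The tumor channel lay below the control channel with no overlap over the arrays for 13 of 33 members, against 8.47% of all genes.

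The control livers were not alike in these genes. In the control channel, arrays 1, 2 and 8 were all above the other 5 arrays for 26 of 33 members, against 7.06% of all genes, whereas in the tumor channel they were all above for 0 of 33 (2.10% of all genes) and all below for 2 of 33 (2.56% of all genes). Without arrays 1, 2 and 8, 8 members fell: Acsl1, Slc25a20, Acadvl, Decr1, Etfa, Etfb, Acaa1a and Angptl4. The background was then 5.95% of all genes lower and 9.81% higher, no member rose (1 of 33 was higher at an unadjusted p under 0.05), and the median over the members was -0.61. Leaving them out removed their tumors as well as their controls. These arrays were singled out after their control values were known, and the counts describe them with no test. The arrays lay on 1 slide in 2 rows of 4: 18 members fell on row 1 alone (background 6.50% lower) with a median of -1.35, and 8 fell on row 2 alone (background 4.95% lower) with a median of -0.74. Row 1 held arrays 1 and 2, and row 2 held array 8.

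**Figure D1:**
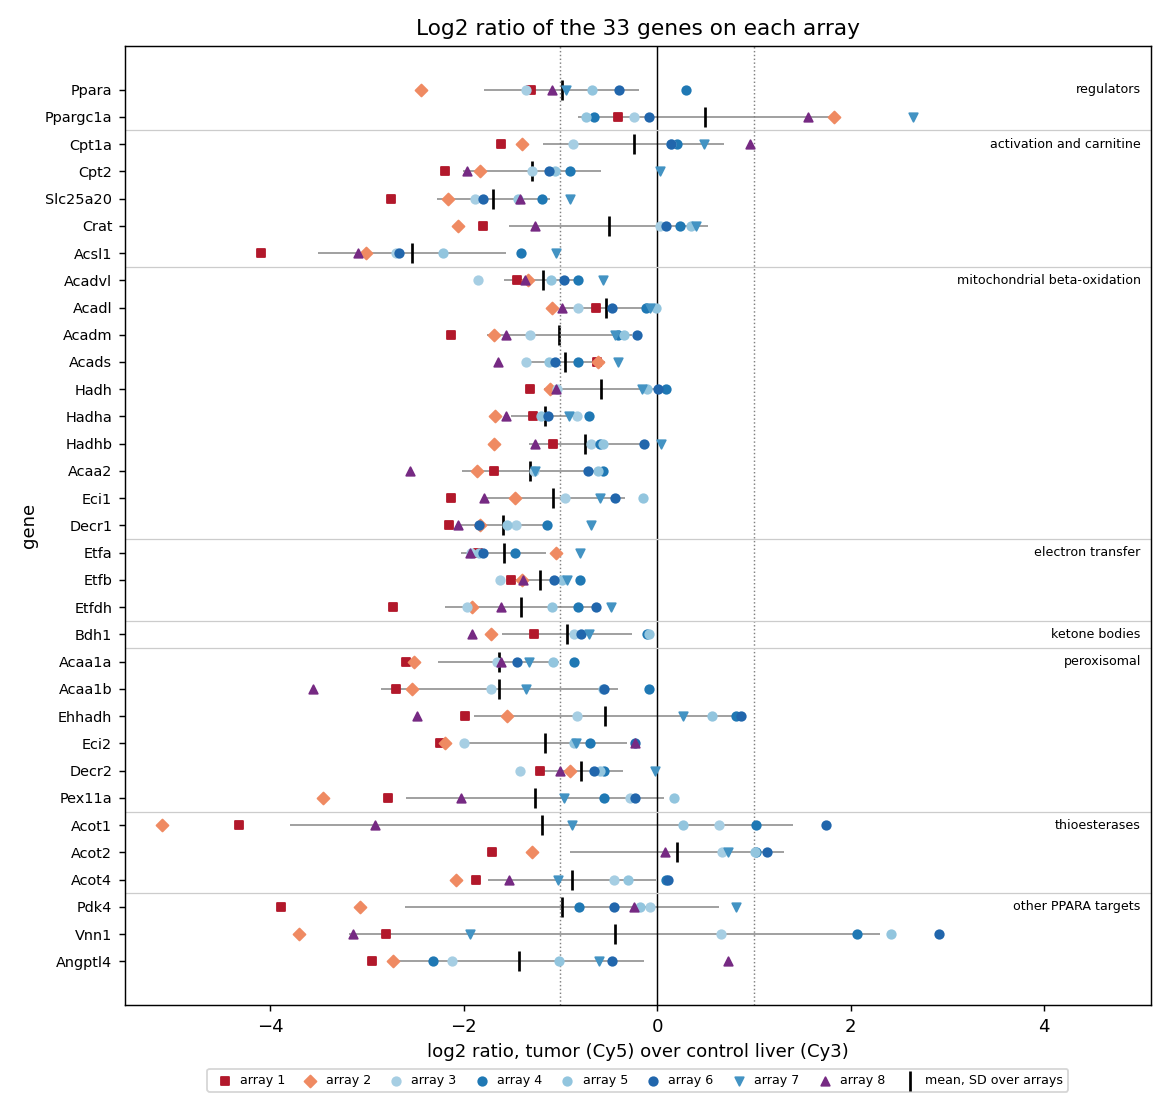
Log2 ratio of tumor (Cy5) over control liver (Cy3) for each of the 33 genes, grouped by role, with one point per array, the mean as a black tick and the SD over arrays as a grey bar; dotted lines mark a 2-fold change. Acsl1 has the lowest mean, -2.53, and arrays 1, 2 and 8 (red squares, orange diamonds and purple triangles) lie at the low end for many genes, while Ppargc1a is above 0 on arrays 2, 7 and 8.

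Both channels were checked against markers of hepatocytes. All 17 tested hepatocyte markers were well above background on 8 of 8 arrays in both channels, and among the brightest were Serpina1a (16.28 in tumors and 18.07 in controls, mean log2 signal), Apoa2 (16.98 and 17.88) and Fgb (17.37 and 17.66). Of the 17 markers, 4 fell, with a median log2 ratio of -0.85. The summed linear signal of 16 of them, those measured on every array, ran from 1221608 to 1587135 in the tumors and from 1876168 to 2418110 in the controls, so the ranges did not overlap. Markers of stellate cells and fibroblasts rose for 7 of 11 genes, and their summed signal ran from 23365 to 102258 in tumors and from 37045 to 50764 in controls. Markers of bile duct cells rose for 3 of 9, with sums from 3629 to 102038 in tumors and from 3278 to 7361 in controls. Of 10 endothelial markers, 2 fell and 2 rose. Their sums ran from 7908 to 17456 in tumors and from 17771 to 24034 in controls, also with no overlap. Of 11 macrophage markers, 5 fell and 2 rose, with sums from 28023 to 69623 in tumors and from 32702 to 78655 in controls. In such bulk samples, fewer cells of a type and less RNA per cell cannot be told apart, and the part of cell makeup in the results was not tested.

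Signals are given from here on as log2 of the normalized channel intensity, and errors are SDs over the 8 arrays. Of the 2 regulators, Ppara had a tumor signal of 12.30 at lowest, 12.97 at the median and 13.74 at highest, and a control signal of 13.45, 13.92 and 14.75. The channels overlapped, and the ratio was below 0 on 7 of 8 arrays. Its log2 ratio was -0.99 ± 0.80 (adjusted p = 0.00777, limma), just short of 2-fold. Leaving out array 4, where the ratio was 0.30, gave -1.17, and leaving out array 5 or 6 gave -1.03 and -1.07, each past the threshold, whereas leaving out 1 of the other arrays gave values up to -0.78. Without arrays 1, 2 and 8 it was -0.61 (adjusted p = 0.0624, limma). Ppargc1a, the coactivator that raises mitochondrial and gluconeogenic genes, had a log2 ratio of 0.49 ± 1.31 (adjusted p = 0.322, limma). Its tumor signal was 11.70, 12.67 and 10.71 in tumors 2, 7 and 8 and between 8.54 and 9.30 in the other 5, while its control signal stayed between 8.94 and 10.03. The tumor channel thus had 3 high samples and the control channel none. The summed signal of 16 skeletal muscle markers was also highest in tumors 2, 7 and 8 (13784, 13709 and 14996, against 3933 to 7160 in the others). In tumors 2 and 7 that sum was high through Cox7a1 (12.97 and 13.16) and Cox6a2 (11.46 and 10.47), subunits of cytochrome c oxidase, whereas other markers such as Myh2 (5.85 and 6.07, against 5.78 to 6.06 in tumors 1 and 3 to 6) and Tnnc2 (6.22 and 6.36, against 6.20 to 6.42) were not raised. The part of these transcripts in the Ppargc1a values was not tested.

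Of the 5 genes that activate fatty acids or carry them as carnitine esters, 3 fell. Acsl1, the main long-chain acyl-CoA synthetase of liver, had a tumor signal of 12.70 at lowest, 13.49 at the median and 14.43 at highest, and a control signal of 15.48, 15.71 and 16.79. No tumor reached the lowest control. Its log2 ratio, -2.53 ± 0.97, was the lowest among the 33 genes (adjusted p = 0.000113, limma), a 5.77-fold difference, and it was -2.01 without arrays 1, 2 and 8. Slc25a20, the carrier that takes acylcarnitines through the inner membrane, had a tumor signal of 9.11, 9.74 and 10.44 (lowest, median and highest) and a control signal of 10.99, 11.08 and 12.27, again with no overlap. The log2 ratio of Slc25a20 was -1.69 ± 0.59 (adjusted p = 7.75e-05, limma) with all arrays and -1.44 without arrays 1, 2 and 8. Cpt2, which releases acyl-CoA on the matrix side, had a log2 ratio of -1.29 ± 0.71 (adjusted p = 0.00104, limma). It was near 0 on array 7 alone, at 0.03, and fell short of the threshold without arrays 1, 2 and 8 (-0.87).

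Cpt1a and Crat did not pass the test. Cpt1a, the rate-limiting carnitine palmitoyltransferase of the outer membrane, had a tumor signal of 13.06 at lowest, 13.80 at the median and 14.36 at highest, and a control signal of 13.26, 13.76 and 15.34. Its control was high on arrays 1 and 2 alone, at 15.34 and 15.25, whereas array 8, at 13.40, lay within the 13.26 to 13.94 of the others. The log2 ratio accordingly ran from -1.62 to 0.96, with a mean of -0.24 ± 0.93 (adjusted p = 0.497, limma), and was 0.18 without arrays 1 and 2. Crat, carnitine acetyltransferase, had control signals of 9.63, 9.73 and 9.73 on arrays 1, 2 and 8 and of 7.64 to 7.90 on the others, a gap with no value in it. Its tumor signal showed no such gap, between 7.67 and 8.47. The log2 ratio was -0.50 ± 1.03 (adjusted p = 0.203, limma) over 8 arrays and 0.22 over the 5 without arrays 1, 2 and 8.

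Of the 10 genes of mitochondrial beta-oxidation, 6 fell, and all 10 had a mean log2 ratio below 0. Decr1, the reductase that lets unsaturated chains through the cycle, had a tumor signal of 13.53, 14.13 and 14.88 (lowest, median and highest) and a control signal of 15.37, 15.57 and 16.26, with no overlap, and a log2 ratio of -1.59 ± 0.49 (adjusted p = 4.61e-05, limma). Acadvl, the very long-chain acyl-CoA dehydrogenase, had a tumor signal of 14.35, 15.28 and 15.64 and a control signal of 16.16, 16.22 and 16.72, and a log2 ratio of -1.18 ± 0.40 (adjusted p = 0.000103, limma). Both fell without arrays 1, 2 and 8 too, by 1.34 and 1.06 on the log2 scale. Acaa2, the mitochondrial thiolase, differed by -1.32 ± 0.70 and was the one gene of this group whose tumor signals on arrays 1, 2 and 8 (15.89, 15.79 and 15.29) all lay below those of the other 5 (16.56 at highest). Without those arrays its log2 ratio was -0.89, short of the threshold.

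Acadm, the medium-chain dehydrogenase, and Eci1, an isomerase for unsaturated chains, were called by a narrow margin. Acadm had a log2 ratio of -1.01 ± 0.75 (adjusted p = 0.00508, limma), with values of -2.13, -1.69 and -1.57 on arrays 1, 2 and 8, of -1.31 on array 3 and of -0.44 to -0.20 on the other 4. Its call was lost by leaving out array 1 (-0.85), array 2 (-0.91), array 3 (-0.97) or array 8 (-0.93). Eci1 was measured on 7 arrays, since its spot was flagged as an outlier on array 4, and had a log2 ratio of -1.07 ± 0.74 (n = 7). Its call was lost by leaving out array 1 (-0.90) or array 8 (-0.95). The other dehydrogenases and Hadhb differed by less than 2-fold: Acads by -0.95 ± 0.42, Hadhb by -0.75 ± 0.57, Hadh by -0.58 ± 0.59 and Acadl by -0.52 ± 0.43 on the log2 scale. All 4 passed an adjusted p under 0.05 with no minimum fold; without arrays 1, 2 and 8, Acads alone of the 4 did (-0.95). The tumor signal of Acads (10.64 to 11.72) did not reach its control signal (11.75 to 12.52), and its log2 ratio passed 2-fold without array 2 (-1.002) or array 7 (-1.03).

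Hadha and Hadhb encode the alpha and beta subunits of the mitochondrial trifunctional protein, which takes long chains through the last 3 steps of each turn, and are transcribed away from each other. Their RefSeq start sites lie 273 bases apart in GRCm38.p6, so that the 300-base promoter windows share 228 bases. The Hadhb window (chr5:30155003-30155302, plus strand, 5′ to 3′) is shown to mark that stretch, in capitals.
Hadhb: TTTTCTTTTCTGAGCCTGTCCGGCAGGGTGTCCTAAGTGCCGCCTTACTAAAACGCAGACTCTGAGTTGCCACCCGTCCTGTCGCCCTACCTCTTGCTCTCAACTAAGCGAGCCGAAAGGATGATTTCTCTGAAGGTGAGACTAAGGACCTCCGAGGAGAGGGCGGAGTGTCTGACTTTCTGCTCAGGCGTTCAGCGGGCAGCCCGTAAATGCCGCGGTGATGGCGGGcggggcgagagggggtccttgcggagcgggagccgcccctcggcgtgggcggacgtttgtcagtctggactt
The ratios of the pair were both lowest on array 2 (-1.68 for Hadha and -1.69 for Hadhb). Hadha had a tumor signal of 10.04 at lowest, 10.31 at the median and 10.59 at highest, and a control signal of 11.05, 11.22 and 11.96, with no overlap. Its log2 ratio was -1.16 ± 0.34 (adjusted p = 5.46e-05, limma) and -0.95 without arrays 1, 2 and 8. Hadhb had a tumor signal of 13.11, 13.16 and 13.79 and a control signal of 13.64, 13.79 and 14.82, which overlapped, since tumors 1 and 7 (13.68 and 13.79) lay above the lowest control. Both controls were highest on arrays 1, 2 and 8.

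The electron transfer flavoprotein passes electrons from all acyl-CoA dehydrogenases to its oxidoreductase, encoded by Etfdh, and on to ubiquinone. All 3 of its genes fell, and in none did a tumor reach the lowest control. Etfa had a tumor signal of 13.02, 13.31 and 14.14 (lowest, median and highest) and a control signal of 14.82, 14.95 and 15.27. Its log2 ratio was -1.58 ± 0.44 (adjusted p = 2.75e-05, limma). Of the 17 genes that fell it changed least, to -1.57, without arrays 1, 2 and 8, and its control signals on those arrays overlapped the others. Etfb had a tumor signal of 14.56, 15.13 and 15.23 and a control signal of 16.03, 16.21 and 16.59, and a log2 ratio of -1.21 ± 0.30, the smallest SD among the 33 genes (adjusted p = 2.58e-05, limma). Etfdh had a log2 ratio of -1.41 ± 0.78 and lay just short of the threshold, at -0.999, without arrays 1, 2 and 8, where it was no longer called. Bdh1, the dehydrogenase that makes beta-hydroxybutyrate, differed by -0.93 ± 0.68 (adjusted p = 0.00477, limma). Its log2 ratio was below 0 on 8 of 8 arrays, and it was called without array 4 (-1.05) or array 5 (-1.05), but was -0.51 without arrays 1, 2 and 8.

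Of the 6 peroxisomal genes, 4 fell. Acaa1a and Acaa1b encode near-identical peroxisomal thiolases, so each probe may also read the other. Acaa1a had a tumor signal of 14.27, 14.73 and 15.02 (lowest, median and highest) and a control signal of 15.81, 16.12 and 17.03. The log2 ratio of Acaa1a was -1.64 ± 0.62 (adjusted p = 0.000132, limma), and -1.27 without arrays 1, 2 and 8. Acaa1b had a control signal of 15.55, 15.74 and 16.78 on arrays 1, 2 and 8 and of 14.03 to 14.41 on the others, while every tumor signal, from 12.54 to 13.95, lay below the lowest control. Its log2 ratio of -1.63 ± 1.22 (adjusted p = 0.00480, limma) became -0.85, no longer called, without arrays 1, 2 and 8.

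Eci2, an isomerase for unsaturated chains, had a log2 ratio of -1.16 ± 0.85 (adjusted p = 0.00468, limma). Its tumor signal was highest in tumor 8, at 15.03, where its ratio was -0.23, and it fell short of the threshold without arrays 1 and 2 (-0.81) and without arrays 1, 2 and 8 (-0.92). Pex11a, which elongates and divides peroxisomes, had a control signal of 15.82, 15.81 and 15.66 on arrays 1, 2 and 8 and of 13.70 to 14.22 on the others. Its log2 ratio was -1.26 ± 1.33 (adjusted p = 0.0243, limma). The call was lost by leaving out array 1 (-1.05), array 2 (-0.95) or array 8 (-1.15), and also under row 1 of the slide alone, where it was -1.77 over 4 arrays (adjusted p = 0.0592, limma). Decr2, the peroxisomal dienoyl-CoA reductase, differed by -0.79 ± 0.44 (adjusted p = 0.00149, limma), under 2-fold.

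Ehhadh, the bifunctional enzyme of the peroxisomal cycle and a classical PPARA target, did not pass the test. Its control signal was 14.62, 14.36 and 15.48 on arrays 1, 2 and 8 and 12.28 to 13.14 on the others, and its tumor signal ran from 11.79 to 13.40. The tumors spanned the 5 lower controls and reached none of the 3 high ones. The log2 ratio was -0.54 ± 1.35 (adjusted p = 0.286, limma), negative on arrays 1, 2, 3 and 8 and positive on the other 4, and 0.34 without arrays 1, 2 and 8.

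The mitochondrial set was taken as 17 genes (Cpt1a, Cpt2, Slc25a20, the 10 beta-oxidation genes, the 3 electron transfer genes and Bdh1) and the peroxisomal set as the 6 genes above. In the mitochondrial set 11 of 17 fell, with a median log2 ratio of -1.16, and in the peroxisomal set 4 of 6 fell, with a median of -1.21. Taken array by array, the mitochondrial median minus the peroxisomal median was 0.80, 0.67, 0.25, -0.20, -0.41, -0.40, 0.34 and 0.26 on arrays 1 to 8. The peroxisomal set was the lower one on arrays 1, 2, 3, 7 and 8 and the mitochondrial set on arrays 4, 5 and 6, so neither was lower throughout. The control signals of both sets were high on arrays 1, 2 and 8: relative to each gene's median over the 8 arrays, the median control signal of the peroxisomal set was 1.03, 1.01 and 1.28 on arrays 1, 2 and 8, and that of the mitochondrial set 0.76, 0.73 and 0.55. On arrays 3 to 7 these medians lay between -0.23 and -0.01 in both sets. Array 8 had the highest peroxisomal control and a difference between the sets of 0.26, and arrays 3 and 7 had differences of 0.25 and 0.34 with no raised control. In the tumor channel the same measure was -0.39, -0.36 and 0.08 for the peroxisomal set on arrays 1, 2 and 8. For the mitochondrial set it was -0.05, -0.0013 and -0.08. The part of either channel in the difference was not tested. Without arrays 1, 2 and 8, 5 of 17 mitochondrial genes fell, with a median of -0.89, and 1 of 6 peroxisomal genes, Acaa1a, with a median of -0.75.

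**Figure D2:**
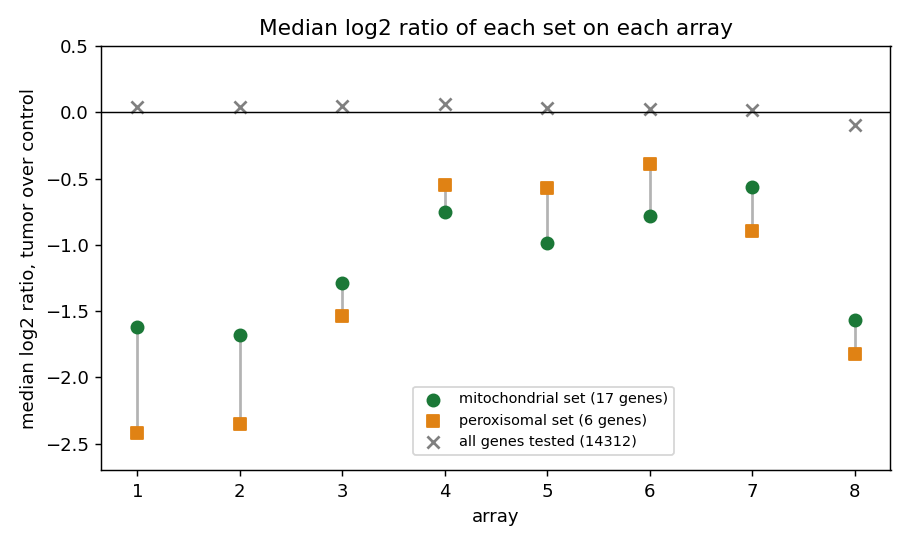
Median log2 ratio of tumor over control on each array for the mitochondrial set (17 genes, green circles), the peroxisomal set (6 genes, orange squares) and all 14312 genes tested (grey crosses); a grey line joins both sets on an array. The peroxisomal median is below the mitochondrial one on arrays 1, 2, 3, 7 and 8 and above it on arrays 4, 5 and 6, and both are below 0 on 8 of 8 arrays.

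None of the 3 acyl-CoA thioesterase genes was called, though Acot4 passed an adjusted p under 0.05 with no minimum fold. Acot1, Acot2 and Acot4 cut acyl-CoA back to free fatty acids, Acot1 in the cytosol, Acot2 in mitochondria and Acot4 in peroxisomes. They lie in a cluster of related genes, so a probe may also read its neighbours, which was not tested. Acot1 had a control signal of 14.91, 14.78 and 15.15 on arrays 1, 2 and 8 and of 10.45 to 11.84 on the others, with a tumor signal of 9.66 to 12.87. The tumors spanned the 5 lower controls and reached none of the 3 high ones. Its log2 ratio ran from -5.12 on array 2 to 1.74 on array 6, with a mean of -1.19 ± 2.60 (adjusted p = 0.223, limma), and was 0.56 without arrays 1, 2 and 8. Acot2 had control signals of 8.74, 8.91 and 8.91 on those arrays and of 6.599 to 7.08 on the others, and a log2 ratio of 0.21 ± 1.11. Without those arrays its log2 ratio was 0.91, positive on each of the 5 but under 2-fold. Acot4 differed by -0.88 ± 0.87 (adjusted p = 0.0198, limma) and was called when array 4 (-1.02) or array 6 (-1.02) was left out, whereas it was -0.31 (adjusted p = 0.189, limma) without arrays 1, 2 and 8.

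Among the other PPARA targets, Angptl4 fell and Pdk4 and Vnn1 did not pass the test. Angptl4, a secreted inhibitor of lipoprotein lipase, had a tumor signal of 12.77, 13.81 and 15.03 (lowest, median and highest) and a control signal of 14.30, 15.20 and 16.63. Its control was high on arrays 1 and 2 (16.63 and 16.32) and lowest on array 8 (14.30), unlike most members. The log2 ratio was -1.43 ± 1.29 (adjusted p = 0.0121, limma), with array 8 alone above 0, at 0.73, and it was -1.30 without arrays 1, 2 and 8. Leaving out arrays 1 and 2 but not array 8 gave -0.96 (adjusted p = 0.0746, limma), so the call was lost. Pdk4, the kinase that shuts pyruvate dehydrogenase in fasting, had a tumor signal of 7.08 to 9.02 in tumors 1 to 7 and of 11.11 in tumor 8. Its control was equally high on array 8, and its log2 ratio was -3.89 and -3.07 on arrays 1 and 2 and between -0.80 and 0.81 on the other 6 (mean -0.99 ± 1.62, adjusted p = 0.116, limma). Vnn1, a pantetheinase, varied in both channels: the tumor signal was 9.11 to 10.61 in tumors 1, 2, 7 and 8 and 11.62 to 13.11 in tumors 3 to 6, and the control signal was 12.93 to 13.47 on arrays 1, 2 and 8 and 9.49 to 11.04 on the others. The log2 ratio was below 0 on arrays 1, 2, 7 and 8 and above 0 on the other 4, with a mean of -0.44 ± 2.74 (adjusted p = 0.675, limma), the widest spread among the 33 genes.

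**Figure D3:**
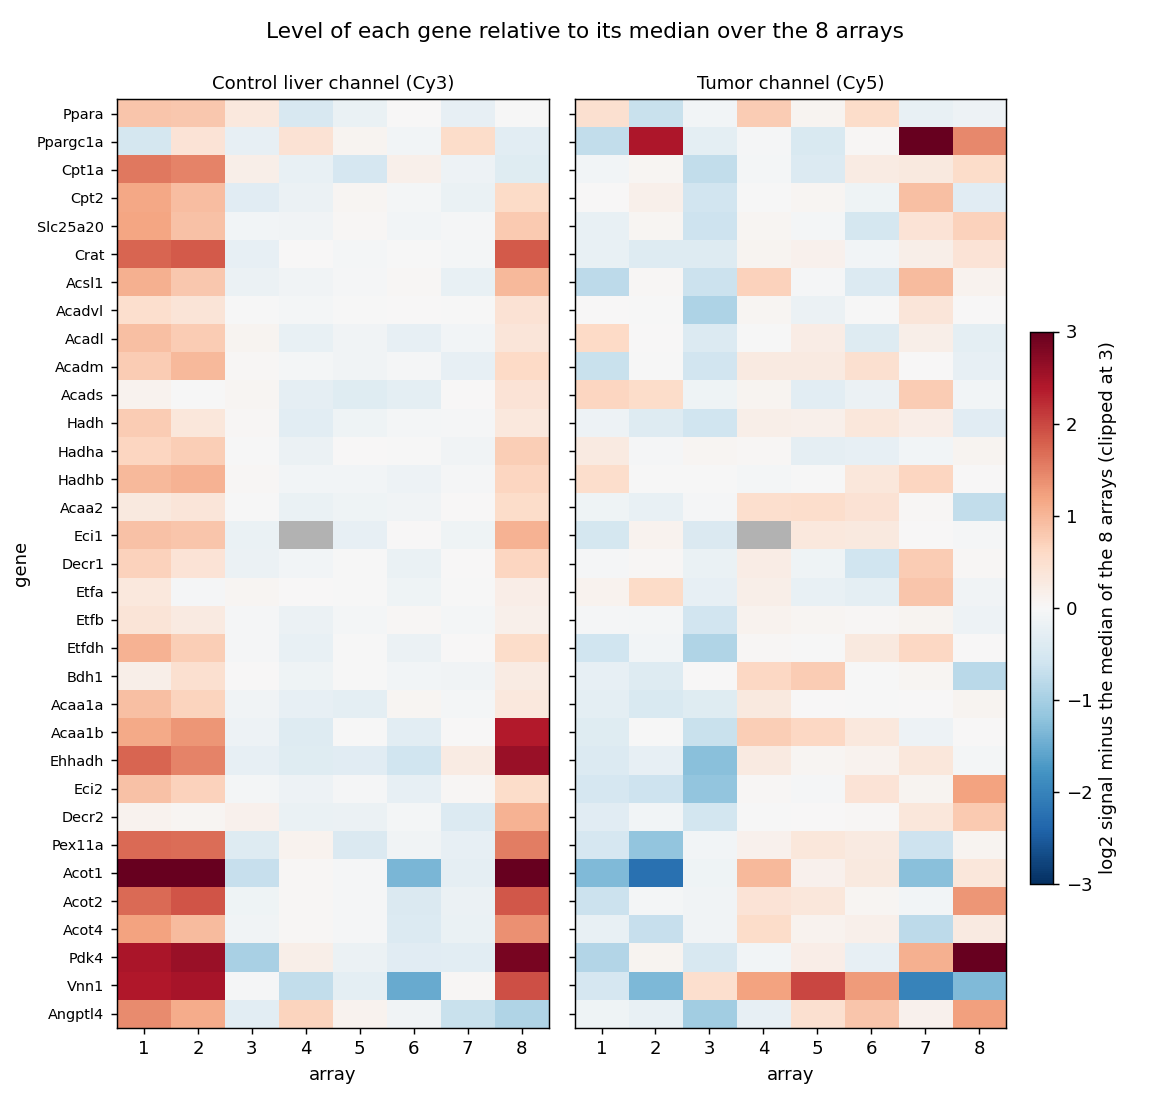
Log2 signal of each of the 33 genes in the control liver channel (left) and the tumor channel (right) on the 8 arrays, relative to the gene's median over the arrays of that channel; red is above the median, blue below, colours stop at 3 and the grey cells are Eci1 on array 4. Arrays 1, 2 and 8 form red columns in the control channel, with exceptions such as Cpt1a and Angptl4 on array 8, and form none in the tumor channel.

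The arrays with high controls were described further from the control channel alone. Over the 33 genes, the median control signal relative to each gene's median was 0.91, 0.82 and 0.60 on arrays 1, 2 and 8 and between -0.14 and -0.05 on arrays 3 to 7. In the tumor channel the same measure ran from -0.42 (array 3) to 0.17 (array 7), with arrays 1, 2 and 8 at -0.23, -0.05 and 0.02. The control SD exceeded the tumor SD for 21 of 33 members, against 17.0% of all genes. The log2 ratio of arrays 1, 2 and 8 lay below the other 5 for 17 of 33 members (4.53% of all genes). The controls of arrays 1 and 2 were the most alike of all pairs, with r = 0.995 across genes, which are not independent replicates, against 0.977 to 0.992 for other pairs, and a median absolute difference of 0.13 against 0.14 to 0.24. Averaged to 1 replicate, they left 15 of 33 members lower.

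**Figure D4:**
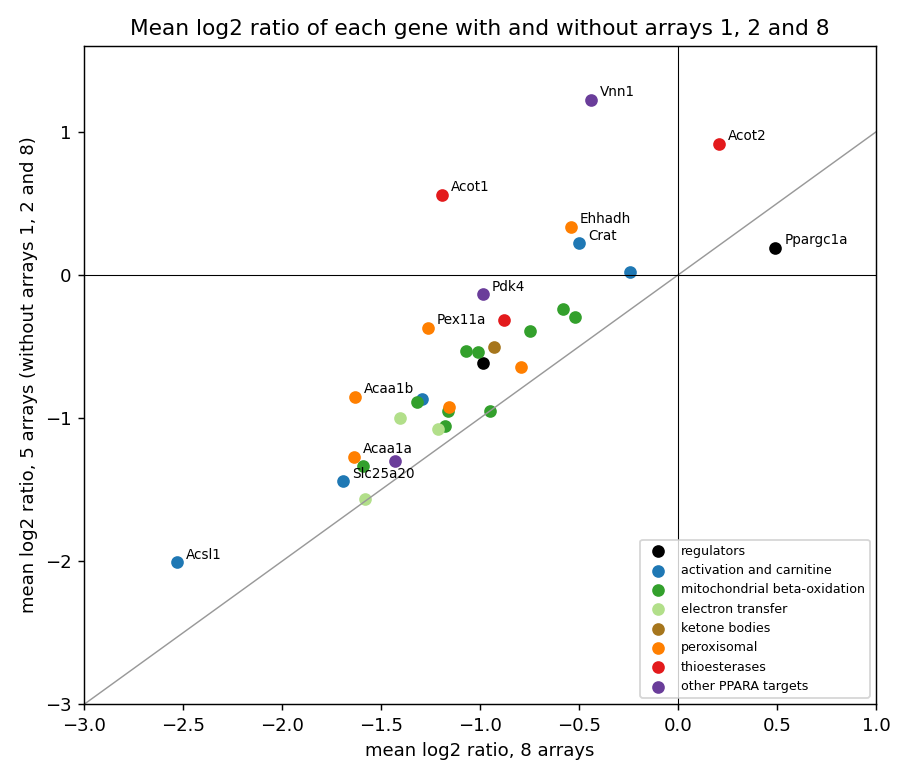
Mean log2 ratio of each of the 33 genes over the 5 arrays left without arrays 1, 2 and 8 (vertical) against the mean over all 8 arrays (horizontal), coloured by role; the grey diagonal marks equal values. Every gene but Ppargc1a lies on or above the diagonal, Acot1 (-1.19 to 0.56) and Vnn1 (-0.44 to 1.23) farthest from it, whereas Etfa, Acads and Acadvl lie close to it.

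Other transcripts also set these controls apart. The summed hepatocyte markers of the controls were 1876168, 2212645 and 2135773 on arrays 1, 2 and 8, not above the 1995730 to 2418110 of the others. The 16 skeletal muscle markers summed to 91826 in the control of array 8 and to between 4479 and 5128 in the other 7, with Tnni2, a fast muscle troponin, at 14.49 against 6.67 to 7.03. The 8 tested adipocyte markers, of which Cidea is also counted among the other PPARA targets, summed to 19381, 17409 and 14896 on arrays 1, 2 and 8 and to between 2842 and 3452 on the others. Those high sums came mainly from Cidec (13.63, 13.46 and 11.59, against 8.21 to 9.55), Plin4 (11.75, 11.66 and 10.67, against 8.06 to 9.13) and Cidea (10.59, 10.29 and 12.56, against 7.45 to 8.10). Fabp4, which is abundant in adipocytes, was lowest on arrays 1 and 2 (9.71 and 9.53) and highest on array 8 (11.15). Adipoq, which defines adipocytes, was well above background in 4 of 8 controls and 0 of 8 tumors, Plin1 in 1 and 0, and Lep in 0 and 0. The control signal of Adipoq was highest on array 8 (7.81, against 5.93 to 6.78), as was that of the adipocyte marker Cfd (10.21, against 7.28 to 9.62). On arrays 1 and 2 both genes lay within the range of arrays 3 to 7. The part of these transcripts in the results was not tested.

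Genes known to follow feeding were also read in the control channel, since the labels give neither the feeding state nor the hour of collection. Of 14 tested genes of a fasting list, Cyp4a14, a PPARA-driven omega-hydroxylase with close copies, had control signals of 16.52, 17.41 and 17.51 on arrays 1, 2 and 8 and of 9.41 to 14.91 on the others, and Fgf21, the fasting hormone of liver, 11.75, 11.63 and 11.16 against 7.68 to 8.70. Both were thus high on all 3 arrays. Other genes of the list had their lowest control on array 8. These were Pck1 (14.19, against 15.88 to 17.31), Cyp7b1 (14.08, against 14.73 to 16.44) and Tat (14.56, against 14.61 to 15.84). The list thus did not set array 8 apart in 1 direction. Igfbp1, an insulin-repressed gene, had its highest control on array 1 (14.93), while array 2 (14.29) and array 8 (12.60) lay within the 10.96 to 14.61 of the others. Of a feeding list of 15 tested genes, the insulin-induced lipogenic genes Thrsp and Fasn had their lowest controls on arrays 1 and 2 (11.74 and 11.76 for Thrsp, 9.46 and 9.09 for Fasn), whereas array 8 had the highest control of Fasn (11.62). Arrays 1 and 2 and array 8 therefore stood on opposite sides of the others in Fasn. Of the clock genes, Dbp had a control signal of 13.25 on both arrays 1 and 2 and 9.37 on array 8, against 10.98 to 14.91 on the others, and Per1 11.08, 11.11 and 9.36 against 11.35 to 12.16. In the tumor comparison 2 of 14 fasting genes fell and 3 rose, 2 of 15 feeding genes fell, and of 17 clock genes none was called (limma), with 3 lower and 0 higher at an unadjusted p under 0.05. With 1 array left out, the fasting list had from 1 (without array 3, 5 or 6) to 5 lower (without array 7 or 8) and from 1 (without array 6 or 7) to 3 higher, and the feeding list had 1 lower, with Thrsp no longer called, in every case but the one without array 1. Whether feeding, hour or cell makeup had a part in the members' control values was not tested.

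**Figure D5:**
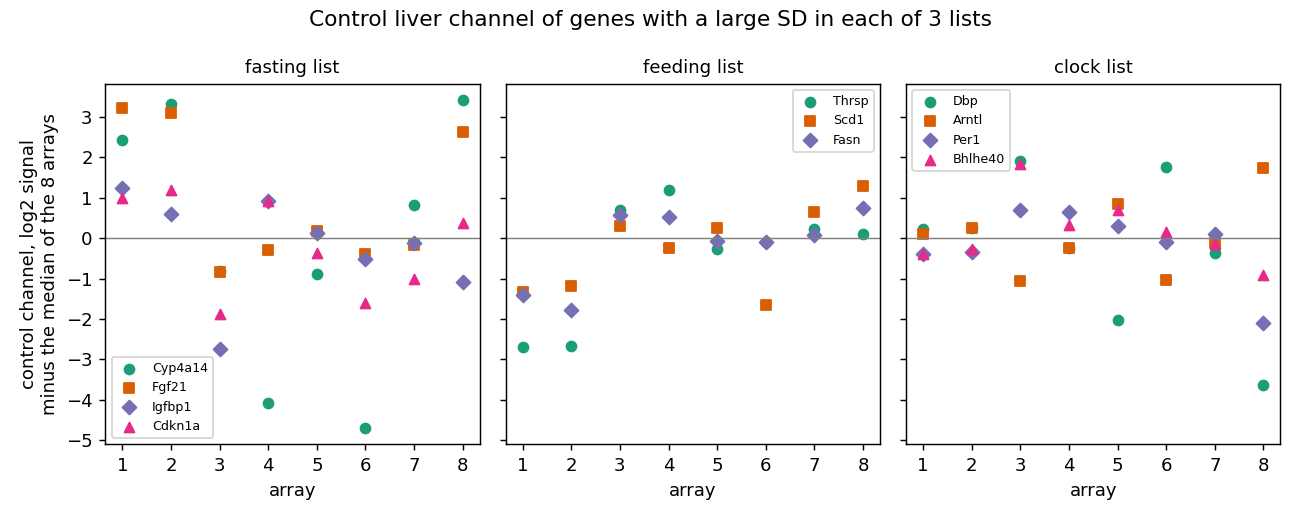
Control channel log2 signal on each array, relative to the gene's median over the 8 arrays, for 4 genes of the fasting list, 3 of the feeding list and 4 of the clock list, all with a large control SD. Cyp4a14 and Fgf21 are high on arrays 1, 2 and 8, while Thrsp and Fasn are low on arrays 1 and 2 and not on array 8, and Dbp and Per1 are lowest for array 8 in the clock panel.

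The promoters of the members were read for the element that PPARA and RXR bind, a direct repeat of AGGTCA with a spacer of 1 base, searched as AGGTCANAGGTCA on both strands with at most 2 mismatches. RefSeq windows of 300 bases, 250 before the start site and 50 after it (GRCm38.p6), were found for 28 of the 33 genes, in 30 windows; Crat, Acaa2, Decr1, Vnn1 and Angptl4 had no window. A match was found in 3 of 30 windows (10%), against 3.86% of 32851 windows of all genes, and the single AGGTCA was present in 4 of 30 (13.3%) against 16.3%. The 3 windows are printed 5′ to 3′ with the match in capitals, to set them beside the values of their genes: Slc25a20 (chr9:108661886-108662185, plus strand) and Etfa (chr9:55512194-55512493, minus strand) fell, and Acot4 (chr12:84038129-84038428, plus strand) was lower by less than 2-fold and not called.
Slc25a20: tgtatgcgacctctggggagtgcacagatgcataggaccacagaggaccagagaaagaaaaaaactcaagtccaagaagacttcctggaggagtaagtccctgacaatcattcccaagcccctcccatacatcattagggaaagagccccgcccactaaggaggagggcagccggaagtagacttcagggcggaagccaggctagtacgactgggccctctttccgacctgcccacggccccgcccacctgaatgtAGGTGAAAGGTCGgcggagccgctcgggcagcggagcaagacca
Etfa: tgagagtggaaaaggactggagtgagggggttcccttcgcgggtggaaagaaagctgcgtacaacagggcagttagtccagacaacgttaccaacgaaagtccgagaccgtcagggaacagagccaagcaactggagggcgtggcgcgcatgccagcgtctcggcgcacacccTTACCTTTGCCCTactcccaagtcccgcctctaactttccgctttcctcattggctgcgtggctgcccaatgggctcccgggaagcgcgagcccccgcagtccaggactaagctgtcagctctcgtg
Acot4: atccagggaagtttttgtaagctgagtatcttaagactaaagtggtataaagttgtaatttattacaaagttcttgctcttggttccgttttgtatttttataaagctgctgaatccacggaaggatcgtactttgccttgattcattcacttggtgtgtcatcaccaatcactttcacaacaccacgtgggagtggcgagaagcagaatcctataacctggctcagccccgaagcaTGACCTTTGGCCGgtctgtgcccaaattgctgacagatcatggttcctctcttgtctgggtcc
The match runs along the gene's strand in Slc25a20 and on the opposite strand in Etfa and Acot4. The control signal of Slc25a20 and Acot4 was high on arrays 1, 2 and 8, and that of Etfa was highest on arrays 1 and 8 (15.27 and 15.14), with array 2 (14.92) among the others. A match is a description of letters, not a binding site, and the absence of one says only that these letters are not in the window.

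Genes of the same pathways outside the 33 were counted from further lists. Of 27 other genes of mitochondrial oxidation, 9 fell and 1 rose, and the median log2 ratio was -0.83. The lowest were Hibadh (-2.34 ± 0.50), of valine breakdown, Acsm5 (-2.11 ± 0.39), a medium-chain acyl-CoA synthetase, and Acadsb (-2.08 ± 0.45), which oxidises branched short chains. The thioesterase gene Acot9 rose (1.85 ± 0.32). Without arrays 1, 2 and 8 the list had 9 lower and 2 higher, with a median of -0.75. Of 24 other peroxisomal genes, 13 fell and 1 rose, and the median was -1.11: Nudt7, a coenzyme A hydrolase, by -4.12 ± 1.20 (17.4-fold), Hacl1, of alpha-oxidation, by -2.10 ± 0.67, and the fatty acid transporter Slc27a2 by -2.09 ± 0.85. The control signal of Nudt7 stayed between 15.04 and 15.85 with arrays 1, 2 and 8 among the others, and its tumor signal was 10.53 to 11.58 in 7 tumors and 13.74 in tumor 7. The list without arrays 1, 2 and 8 had 10 lower and 1 higher, with a median of -0.65. Of 17 genes of peroxisome assembly, 3 fell, among them the membrane channel gene Pxmp2 (-1.94 ± 0.43) and Pex11g (-1.75 ± 0.30).

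A list of 10 genes of ketone body synthesis and use also held the hormone gene Fgf21, which is in the fasting list too. Of these 10, 4 fell and 2 rose, and the median log2 ratio was -0.68. Oxct1, the enzyme that consumes ketone bodies and is known to be nearly silent in normal hepatocytes, rose on 8 of 8 arrays (1.86 ± 0.78). Fgf21 rose by 1.81 ± 2.13 (adjusted p = 0.0373, limma) and, without arrays 1, 2 and 8, by 3.22. Its call was lost by leaving out array 3, 4, 5, 6 or 7, with log2 ratios from 1.49 to 1.76 and adjusted p from 0.0693 to 0.0915 (limma), so that Oxct1 was then the 1 gene of this list that rose. The rise of Fgf21 was thus larger without the arrays on which its control was high.

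Of 38 other PPARA targets, 13 fell and 4 rose, and the median log2 ratio was -0.51. Cyp8b1, the sterol 12-hydroxylase, fell by 3.69 ± 1.64 on the log2 scale. Several Cyp4a genes, omega-hydroxylases whose close copies may share signal, had a wide spread. Cyp4a14, with -1.79 ± 4.76 and values from -6.76 to 5.09, was not called. Cyp4a10 had a log2 ratio of -2.87 ± 3.53 and Cyp4a31 of -2.94 ± 3.62, and without arrays 1, 2 and 8 they were at -0.96 and -0.95, not called. Both calls were also lost by leaving out array 1, 2, 3, 7 or 8. Cyp4a12a had -3.21 ± 2.56 and remained called without those arrays, at -1.61. The list without arrays 1, 2 and 8 had 9 lower and 3 higher, with a median of -0.09. Of 23 genes of receptor partners and cofactors, 1 fell, Med1, a Mediator subunit that nuclear receptors contact (-1.41 ± 0.36, below 0 on 8 of 8 arrays), and the median was -0.20.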

How the data were processed

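RNA of 8 tumors (Cy5) and of control livers (Cy3) was read on 8 arrays of 1 slide. Per the file headers, each deposited file holds, for every spot, intensity as median signals and local backgrounds, processed intensity from which the scanner software had subtracted background and removed dye bias, and the log10 of red over green. Agilent Feature Extraction was used, version 10.9 per the submitters' processing notes and 10.9.1.1 per the file headers. The log10 ratio deposited by the authors was used only as a check.

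From the median signals, log2 ratios were computed after normexp (offset 50) and within-array loess, and channel values after Aquantile, with control and outlier spots left out (limma 3.58.1 and the data.table package, version 1.17.8, in R 4.3.3). A positive log2 ratio means more in the tumor. Tests kept probes whose spots passed the scanner's background test on 4 or more arrays of either channel, 29292 of 55681 probes, and each of 14312 genes was read from its brightest kept probe. Of all probes, 26582 had a symbol, through RefSeq or Ensembl accessions of GRCm38.p6 genes. No spot of the arrays was saturated. The mean log2 ratio was tested against 0 with lmFit and eBayes, with Benjamini-Hochberg adjustment over all genes; the procedure was tested on simulated data. The number of arrays limits the precision.

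The 33 genes, the further lists and the arrays singled out were chosen with earlier results of these data known. Named are all 33 genes, up to 4 called genes of each other pathway list with the largest log2 ratio, up to 4 genes of the fasting, feeding and clock lists with the largest control SD, and the brightest markers; some genes that these rules name are not reported here. Tnni2, Myh2, Tnnc2, Cidea, Adipoq, Plin1, Lep, Cfd, Pck1, Cyp7b1 and Tat were chosen after their values were seen.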

Additional observations from a re-analysis of the deposited data

Results flagged for a closer look

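For each of the 33 genes, the log2 ratio, the tumor signal and the control signal were screened for a sample far from the other 7, with Dixon's test for 8 samples. Of 99 sets of values, 3 held such a sample, where chance gives about 1 in 20. The tumor signal of Acadvl was lowest in tumor 3, at 14.35, with the next tumor at 15.10. The tumor signal of Etfb was also lowest in tumor 3, at 14.56, with the next at 14.97. The control signal of Decr2 was highest on array 8, at 14.27, with the next control at 13.36. Tumor 3 had the lowest tumor signal of the members as a whole, with a median of -0.42 relative to each gene's median over the 8 tumors.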

How the results depend on the processing

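The 17 genes called lower became 8 without arrays 1, 2 and 8 and 8 on row 2 of the slide alone. Under the other 26 alternatives the count stayed within 1.5 times 17, from 13 to 25, including 15 with arrays 1 and 2 averaged, 14 with array weights, 13 without arrays 1 and 2, 14 without array 8 and with arrays 1 and 2 averaged, 18 on row 1 alone and 25 with no minimum fold. Leaving out each array in turn gave 14 to 20. The tumor and control of an array are paired by the hybridization; fitted with no replicate block, as channels not paired by array, 17 genes were again called lower, and with the row of the slide as a random block also 17. No member was called higher under any of these 28 alternatives. The median over the members ran from -1.35 to -0.61. Mean log2 ratios changed sign in 13 cases. Without arrays 1, 2 and 8, Acot1 became 0.56, Crat 0.22, Ehhadh 0.34, Cpt1a 0.0218 and Vnn1 1.23. Cpt1a was also 0.43 on row 2 alone and 0.18 without arrays 1 and 2. Vnn1 was 0.63 with array weights, 0.0641 on row 2 alone, 0.48 without array 8 and with arrays 1 and 2 averaged, 0.50 without arrays 1 and 2 and from -0.92 to 0.0255 with each array left out in turn, above 0 without array 2. Acot2 was -0.33 on row 1 alone. None of these 6 genes was called with all arrays or in those settings, and the cause was not tested. Over the further lists, the 28 alternatives gave from 36 to 83 genes lower and from 7 to 17 higher. The 83 and 17 came with no minimum fold, because the fold was no longer asked for. With each array left out in turn, 43 to 49 were lower and 8 to 11 higher. The difference between the mitochondrial and peroxisomal medians ran from -0.33 to 0.42. Of 891 values of results under alternatives, 44 lost a call, 20 gained one and 827 did neither, the 13 changes of sign among them. The settings by slide row, without arrays 1 and 2, and without array 8 with arrays 1 and 2 averaged were chosen after seeing the data. Signals of the members were well above background in both channels on 8 of 8 arrays. The tumor channel of array 8 was dimmer than the others, with 38.5% of probes well above background against 44.0% to 51.9%. The upper quartile of its median signal was 213, against 378 to 606. Some members were dim, such as Acot2 (control signal 6.60 at lowest) and Pdk4 (tumor signal 7.08 at lowest). The part of signal strength in these values was not tested.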

Other observations

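The tumors 2, 7 and 8, in which Ppargc1a was high, also had high tumor signals of 2 muscle-type subunits of cytochrome c oxidase, singled out after their values were seen. Cox7a1 was at 12.97, 13.16 and 12.60 in those tumors and at 8.18 to 9.30 in the other 5, and Cox6a2 at 11.46, 10.47 and 10.55 against 6.90 to 8.29. The fast muscle troponin gene Tnni2 was not high in tumors 2 and 7 (7.82 and 7.67, against 7.58 to 7.89 in tumors 1 and 3 to 6) and was at 9.83 in tumor 8. Tumor 8, unlike tumors 2 and 7, was also high in Tnnc2 (10.78, against 6.20 to 6.42 in tumors 1 to 7) and Myh2 (8.37, against 5.78 to 6.07). In the control channel of array 8 Cox6a2 was at 12.40, against 6.40 to 7.22 in the other controls, and Cox7a1 at 11.93, against 9.41 to 10.30.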
